A study of Mus musculus with 9 samples.

Results

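The 10 genes described here, *Zscan4c*, *Zscan4d*, *Zscan4e*, *Zscan4f*, *Tcstv1*, *Tcstv3*, *Zfp352*, *Tmem92*, *Usp17lb* and *Usp17lc*, mark the two-cell-like state of mouse embryonic stem cells (ESCs). They were 10 of the 55471 genes in the count table and were chosen by name, with their counts in these same libraries already known. Their levels and differences between the groups are therefore given as a description, without a test. Counts of 3 or fewer in a library were treated as the detection floor.

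RNA sequencing was carried out on embryoid bodies (EBs), the aggregates that ESCs form when they begin to differentiate. The 9 libraries comprised 3 each of WT EBs from the E14 line, *Tnfaip2*-/- EBs without supplement (KO) and *Tnfaip2*-/- EBs given palmitic acid (8 μM) and palmitoyl-L-carnitine (8 μM) as a supplement (KO_PAPC). The knockout line was 1 clone made with CRISPR/Cas9, with a premature stop codon, and was compared with its parental line, so that effects of the clone and of the knockout cannot be told apart. All EBs were started from hanging drops of 1000 cells and were harvested after 3 days of differentiation on gelatin. In the study's methods, EBs form in ES cell medium, but treated cells formed them in MEF medium that already held the supplement. The medium in which the vehicle control EBs formed is not stated. Effects of the supplement and of the medium during EB formation therefore cannot be told apart in KO_PAPC. The labels name no vehicle for WT or KO, while the study describes a vehicle control for the KO EBs compared with KO_PAPC and each of those libraries as an independent pool of EBs. The labels do not say whether replicates came from separate cultures, so p-values measure the spread between these libraries, which may be technical; the study's methods call them biological replicates.

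Between 27362913 and 28914312 counts were obtained per library, at which 3 counts correspond to 0.104 to 0.110 CPM (counts scaled to equal library totals). *Tnfaip2* itself held 16, 6 and 10 counts in WT, 5, 6 and 8 in KO and 25, 14 and 16 in KO_PAPC. A frameshift need not lower a transcript, so these counts gave no check of the knockout labels, and all directions are those of the libraries as labelled. Groups differed in many genes. By the quasi-likelihood test of edgeR (adjusted p under 0.05), 36.8% of 17355 tested genes were higher in KO than in WT and 37.1% were lower. In KO_PAPC against KO, 39.6% of 17167 genes were higher and 42.2% lower (6801 and 7246 genes, or 5323 and 8677 when libraries were scaled by their totals instead of the TMM size factors). In KO_PAPC against WT, 34.2% of 16655 genes were higher and 36.4% lower (5693 and 6067 genes, or 3631 and 8334 by totals). Counts of listed genes are to be read against these shares.

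In ESC cultures a small and changing fraction of cells passes through a state that resembles the blastomeres of the two-cell embryo. Such cells transiently transcribe genes that are otherwise on at zygotic genome activation, among them the *Zscan4* cluster, the *Tcstv* genes, *Zfp352* and members of the *Usp17l* family. The transcription factor DUX is a known activator of the state, DPPA2 and DPPA4 act upstream of it, and chromatin repressors keep it rare. In bulk libraries, a lower share of such cells and less RNA per cell cannot be told apart.

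Upstream sequences were available from RefSeq (GRCm38.p6) for 6 of the 10 members: *Zscan4c*, *Zscan4d*, *Zscan4f*, *Zfp352*, *Usp17lb* and *Usp17lc*. The 250 bases before the RefSeq start are shown for 5 of them, to let the shared and the particular stretches be seen beside their counts. Capitals mark a TATA box (TATAAA), the homeodomain word TAATCC and the first part of the paired-homeodomain word of DUX (TGATTNAAT), each on either strand. They were taken from chr7:11005495-11005744 (*Zscan4c*, plus strand), chr7:11166149-11166398 (*Zscan4d*, minus strand), chr4:90218570-90218819 (*Zfp352*, plus strand), chr7:104842584-104842833 (*Usp17lb*, minus strand) and chr7:103416446-103416695 (*Usp17lc*, plus strand).
Zscan4c: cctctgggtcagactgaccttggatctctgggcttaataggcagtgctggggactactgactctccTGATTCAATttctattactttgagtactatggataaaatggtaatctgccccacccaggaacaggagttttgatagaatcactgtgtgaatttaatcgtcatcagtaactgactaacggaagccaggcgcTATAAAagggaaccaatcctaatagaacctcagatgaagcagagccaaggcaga
Zscan4d: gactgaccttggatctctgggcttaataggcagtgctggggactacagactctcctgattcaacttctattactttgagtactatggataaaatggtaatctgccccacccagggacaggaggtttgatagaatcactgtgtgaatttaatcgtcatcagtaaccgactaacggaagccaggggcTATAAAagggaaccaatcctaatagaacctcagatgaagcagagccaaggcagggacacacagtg
Zfp352: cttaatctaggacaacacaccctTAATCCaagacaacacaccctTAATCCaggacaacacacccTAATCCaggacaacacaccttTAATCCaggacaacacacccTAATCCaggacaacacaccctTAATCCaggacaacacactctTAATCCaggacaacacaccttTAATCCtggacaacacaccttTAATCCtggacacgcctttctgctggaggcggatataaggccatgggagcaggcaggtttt
Usp17lb: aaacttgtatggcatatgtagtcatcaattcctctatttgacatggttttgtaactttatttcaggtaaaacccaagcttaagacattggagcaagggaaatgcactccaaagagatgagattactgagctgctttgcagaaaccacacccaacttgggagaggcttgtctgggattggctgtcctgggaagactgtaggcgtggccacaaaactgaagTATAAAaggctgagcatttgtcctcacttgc
Usp17lc: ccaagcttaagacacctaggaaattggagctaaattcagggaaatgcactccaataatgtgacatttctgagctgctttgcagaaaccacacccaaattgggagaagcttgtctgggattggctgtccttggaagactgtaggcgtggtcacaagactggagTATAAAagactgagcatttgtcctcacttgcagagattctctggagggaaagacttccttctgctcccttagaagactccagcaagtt

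The *Zscan4* stretches were nearly copies of each other. *Zscan4f* (chr7:11397665-11397914) matched *Zscan4c* at 226 of 227 aligned bases, and *Zscan4d* matched it at 232 of 239. *Usp17lb* and *Usp17lc* shared 165 of 178 aligned bases. A TATAAA word stood in 5 of the 6 members, with *Zfp352* the exception, against 12.4% of all 32851 RefSeq windows of this length. Its first letter lay 54 bases before the RefSeq start in *Zscan4c*, 65 in *Zscan4d*, 31 in *Zscan4f* and *Usp17lb* and 88 in *Usp17lc*. These 5 members come from the *Zscan4* and *Usp17l* families of near copies, so their matches are not independent of each other. The TGATTNAAT word was held by *Zscan4c* and *Zscan4f* and by 0.658% of all windows. The full DUX word, in which CA follows these letters, was in none of the 6 members, and in 0.0304% of all windows. *Zfp352* held TAATCC 9 times in a tandem repeat, with first letters from 227 to 61 bases before the start, and no other member held it, against 6.25% of all windows. TGCACAC, a word bound by ZSCAN4, was found in none of the 6 and in 3.67% of all windows. The short DUX word was chosen after the sequences had been seen, lies within the full word, and a match is a description of letters and not a binding site. The starts of *Zscan4d*, *Usp17lb* and *Usp17lc* differ between RefSeq and the gene annotation used for the counts.

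Across the 9 libraries, the members shared 1 order of groups. Their summed counts were 332, 313 and 310 for WT, 4686, 4708 and 4731 for KO, and 15, 14 and 7 for KO_PAPC. As a level this was 11.4 ± 0.274 CPM for WT (SD over 3 libraries, as throughout), 165 ± 2.43 for KO and 0.434 ± 0.159 for KO_PAPC. KO libraries were above WT libraries for 10 of 10 members, where 37.3% of all tested genes lay so. KO_PAPC libraries were below KO libraries for 10 of 10 (50.7% of all tested genes) and below WT libraries for 9 of 10 (50.6% of all tested genes), the exception being *Tcstv1*, which was at the floor in both. Because the members were chosen with these differences known, nothing is read from these counts. In KO_PAPC, 8 of 10 members were at the floor in every library, and *Zscan4d* and *Tmem92* were the others.

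**Figure D1:**
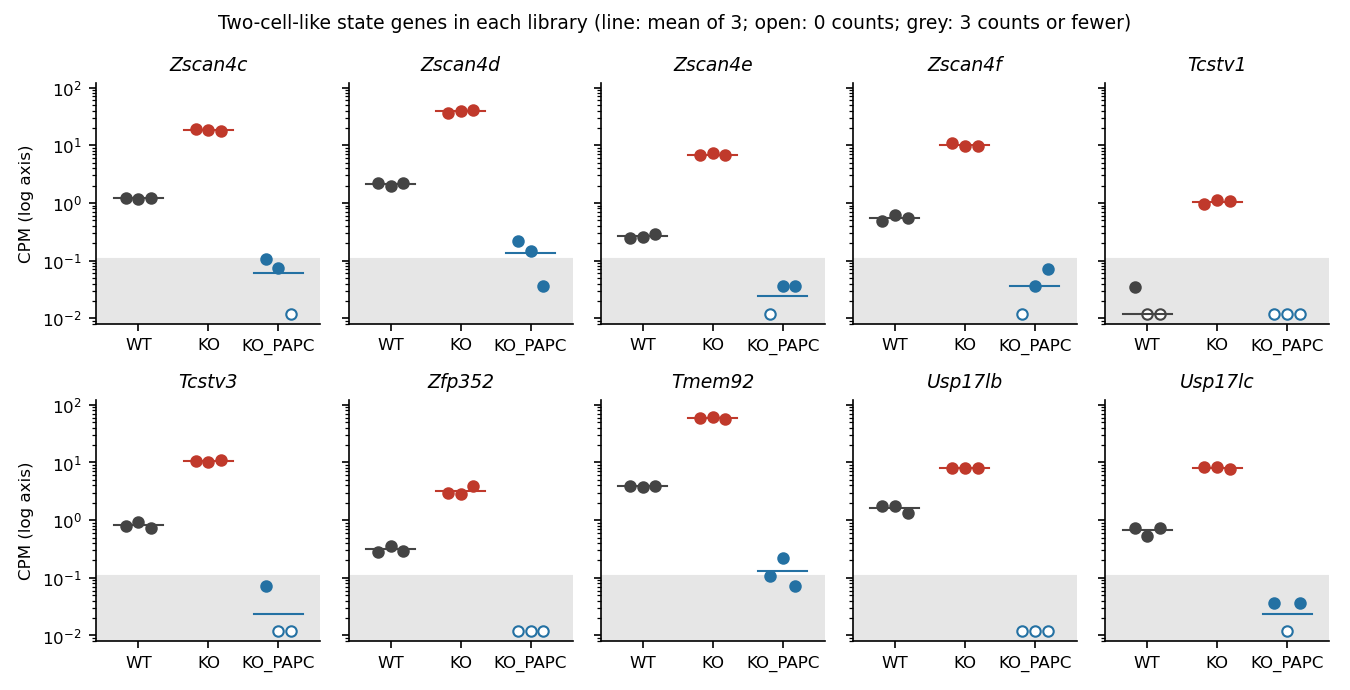
Level of each of the 10 members in each library, in CPM on a log axis, for WT, KO and KO_PAPC (3 libraries each; lines are means). Open points at the bottom are libraries with 0 counts and the grey band covers 3 counts or fewer; all 3 KO points lie above the WT points in every panel, and the KO_PAPC points lie in or just above the band.

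The *Zscan4* genes encode proteins with a SCAN domain and zinc fingers that are known for telomere lengthening and for marking the two-cell-like state. They lie in 1 cluster on chromosome 7. *Zscan4d* (ENSMUSG00000090714, 11161374 to 11166159, 4 exons) had the most counts of the 4 members, with 63, 54 and 60 counts in WT, 1049, 1105 and 1158 in KO and 6, 4 and 1 in KO_PAPC. The groups did not overlap. Its level was 2.11 ± 0.150 CPM in WT EBs, 38.7 ± 1.77 in KO EBs and 0.133 ± 0.0908 in KO_PAPC EBs. KO was 18.3-fold above WT (95% counting interval 15.8 to 21.5) and 292-fold above KO_PAPC (163 to 586). These intervals, exact binomial throughout, cover counting error only.

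*Zscan4c* (ENSMUSG00000054272, 11005745 to 11010547) held 34, 33 and 34 counts in WT, 553, 514 and 512 in KO and 3, 2 and 0 in KO_PAPC. Its mean was 1.21 ± 0.0232 CPM in WT and 18.5 ± 0.833 CPM in KO, a ratio of 15.3 (12.5 to 18.9). *Zscan4f* (ENSMUSG00000070828, 11397915 to 11402318) held 14, 17 and 15 counts in WT, 312, 277 and 282 in KO and 0, 1 and 2 in KO_PAPC. KO thus stood 18.6-fold above WT (13.8 to 25.5), close to the ratio of *Zscan4d*. *Zscan4e* (ENSMUSG00000095936, 11306378 to 11310682) held 7, 7 and 8 counts in WT, 191, 204 and 194 in KO and 0, 1 and 1 in KO_PAPC. It had the highest ratio of the 4, at 26.2 (17.2 to 42.2), with an interval that overlaps those of *Zscan4d* and *Zscan4f*. Taken as 1 family, the 4 genes reached 4.13 ± 0.127 CPM in WT EBs, 74.3 ± 0.630 in KO EBs and 0.253 ± 0.0963 in KO_PAPC EBs.

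How reads divide within the cluster depends on what the counting could tell apart. Since reads mapping to several places were left out, only the stretches particular to a gene could gather counts. Of the 51-base words of the *Zscan4* transcripts, as long as the reads, 85.3% in *Zscan4c*, 88.7% in *Zscan4e*, 86.6% in *Zscan4f* and 49.1% in *Zscan4d* also occur in other genes. Levels between these genes are therefore compared per 1000 particular words. On that scale KO libraries had 56.3 ± 2.54 CPM for *Zscan4c*, 38.9 ± 2.44 for *Zscan4f*, 34.3 ± 1.56 for *Zscan4d* and 34.1 ± 1.67 for *Zscan4e*. *Zscan4c* led, and *Zscan4d* and *Zscan4e* did not differ beyond their spread. The order by plain counts, with *Zscan4d* first, was different. Allelic or strain differences from the reference could also change which reads count as particular, which was not tested.

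*Tcstv1* and *Tcstv3* belong to a group of transcripts named after the two-cell embryo and lie apart on chromosome 13. *Tcstv3* (ENSMUSG00000095821, 120316878 to 120318178, 2 exons) held 22, 26 and 20 counts in WT, 300, 284 and 322 in KO and 2, 0 and 0 in KO_PAPC. KO was 13.1-fold above WT (fitted log2 fold change 3.70 ± 0.129, SE) and 440-fold above KO_PAPC (121 to 3640), a ratio that rests on 2 KO_PAPC counts. *Tcstv1* (ENSMUSG00000096284, 119893388 to 119894785, a single exon) was the lowest member, with 1, 0 and 0 counts in WT, 27, 31 and 31 in KO and 0, 0 and 0 in KO_PAPC. Its KO over WT ratio of 87.2 rests on 1 WT count, so that its interval runs from 15.3 to 3480. Against KO_PAPC, KO was at least 9.60-fold higher, taking the floor of 3 counts per library. *Tcstv1* was at the floor in WT and KO_PAPC, and no fold is given between them.

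*Zfp352* (ENSMUSG00000070902, chromosome 4, 90218820 to 90225702, 2 exons), a zinc finger gene of the two-cell embryo, held 8, 10 and 8 counts in WT, 86, 81 and 112 in KO and 0, 0 and 0 in KO_PAPC. KO was 10.5-fold above WT (7.02 to 16.4). It was at least 30.1-fold above KO_PAPC, and WT was at least 2.86-fold above KO_PAPC. The third KO library was the highest, and the coefficient of variation (CV) between KO libraries, 16.5%, was the largest among the members, beside 10.4% expected from counting alone.

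*Tmem92*, which encodes a transmembrane protein, was the most abundant member in WT and KO by counts. *Tmem92* (ENSMUSG00000075610, chromosome 11, 94777217 to 94782703, 5 exons) held 112, 103 and 109 counts in WT, 1695, 1756 and 1662 in KO and 3, 6 and 2 in KO_PAPC. Its mean was 3.87 ± 0.143 CPM in WT EBs, 59.8 ± 2.63 in KO EBs and 0.133 ± 0.0769 in KO_PAPC EBs. KO was 15.5-fold above WT (13.8 to 17.4) and 451-fold above KO_PAPC (252 to 905), and WT was 29.2-fold above KO_PAPC (16.1 to 59.0). With 1.88% of its 51-base words shared with other genes, it was the member least touched by multiple mapping, and its KO over WT ratio lay within the range of the *Zscan4* genes.

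*Usp17lb* and *Usp17lc* encode deubiquitinating enzymes of the USP17-like family on chromosome 7. *Usp17lb* (ENSMUSG00000062369, 104840257 to 104842603) held 50, 48 and 36 counts in WT, 230, 225 and 235 in KO and 0, 0 and 0 in KO_PAPC. It had the smallest KO over WT ratio of the 10 members, 5.05 (4.19 to 6.12), since its WT counts were high beside its KO level of 8.07 ± 0.0510 CPM. KO was at least 74.4-fold and WT at least 14.7-fold above KO_PAPC. *Usp17lc* (ENSMUSG00000058976, 103415072 to 103419880) held 21, 15 and 20 counts in WT, 243, 231 and 223 in KO and 1, 0 and 1 in KO_PAPC. With 0.668 ± 0.112 CPM in WT and 8.15 ± 0.405 CPM in KO, its ratio was 12.2 (9.28 to 16.3). The intervals of both ratios do not overlap, although KO levels of both genes were close: 6.65 ± 0.0420 CPM per 1000 particular words for *Usp17lb* and 6.22 ± 0.309 for *Usp17lc*. On this scale the other members had 27.3 ± 1.20 for *Tmem92*, 20.9 ± 0.998 for *Tcstv3*, 1.57 ± 0.258 for *Zfp352* and 0.873 ± 0.0712 for *Tcstv1* in KO. The CV of *Usp17lb* between KO libraries, 0.633%, lay under the 6.59% expected from counting alone, so that its SD understates the error. For *Zscan4c* in WT the CV was 1.93%, beside 17.2% from counting.

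As a description, the fitted log2 fold changes of KO against WT ran from 2.33 ± 0.119 (SE) for *Usp17lb* to 4.69 ± 0.182 for *Zscan4e* among members above the floor in WT, with 333 of 17355 tested genes at or above 2.33. In KO_PAPC against KO, all 10 members had a fitted value of -7.76 or lower, as had 75 of 17167 tested genes in all. The value of -7.76 was that of *Zscan4e*, with 0, 1 and 1 counts in KO_PAPC. In KO_PAPC 8 of 10 members were at the floor, and all members passed the filter on low counts through KO alone. No rank among all genes is therefore read from these values. For *Tcstv1*, *Zfp352* and *Usp17lb*, whose KO_PAPC libraries were all at 0, the fitted value depends on the prior count and is no bound; the bounds are those given above. In KO_PAPC against WT, 7 members passed the filter on low counts, while *Zscan4e*, *Tcstv1* and *Zfp352* did not. The contrasts of KO with WT and of KO_PAPC with KO share the KO libraries. Scaling by totals instead of TMM moved the median of all genes by -0.17 in KO_PAPC against KO and by -0.16 in KO_PAPC against WT, which is small beside the values of the members.

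**Figure D2:**
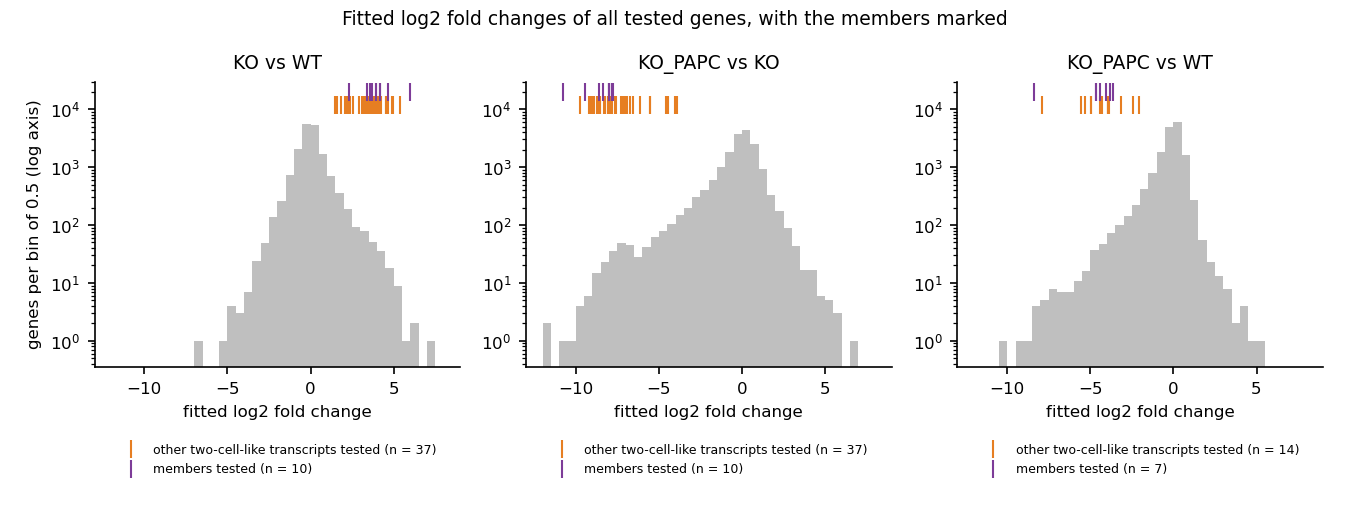
Distribution of fitted log2 fold changes over all tested genes in the 3 contrasts (grey, number of genes per bin on a log axis). Ticks mark the members (purple) and the other listed two-cell-like transcripts (orange); the members lie at 2.33 or above in KO against WT and at -7.76 or below in KO_PAPC against KO.

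To see whether other genes of the same state moved with the members, 54 further transcripts were listed: the remaining *Zscan4* and *Usp17l* paralogs and 46 other transcripts known from two-cell embryos or two-cell-like cells. In WT and KO together 8 of the 54 held no count. Of the other 46, the mean level was higher in KO for 44 and lower for 2, *Tdpoz1* and *Trim43a*, which held at most 6 counts in any library. The filter on low counts kept 37, and edgeR called 37 of these higher in KO (background 36.8%), but 23 of them passed the filter through their KO libraries alone, so that their call was in large part fixed by it. Of the 14 that passed it in both groups, 14 were called higher. With a filter of 1 read, 38 of 46 were called higher (background 20.3%). In KO_PAPC against KO, 37 of 37 were called lower (background 42.2%), of which 36 passed the filter through KO alone. The exception, *Calcoco2*, an autophagy receptor gene named after its values were seen, held 416, 384 and 350 counts in WT, 1115, 1056 and 1096 in KO and 76, 55 and 53 in KO_PAPC. KO was thus 17.2-fold (14.9 to 20.1) above KO_PAPC for *Calcoco2*. With a filter of 1 read, 40 of 46 were called lower in KO_PAPC than in KO (background 25.0%). In KO_PAPC against WT, 14 of 14 that passed the filter were called lower (background 36.4%), 13 of them having passed it through WT alone, and 28 of 45 were with a filter of 1 read (background 20.4%). The directions of the called genes held when libraries were scaled by totals or by RLE size factors. The list was compiled with earlier results of these data known.

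The 5 *Zscan4* paralogs had a median log2 fold change of 4.55 in KO against WT and of -8.24 in KO_PAPC against KO. *Zscan4a*, annotated as an unprocessed pseudogene on this build, held 45, 42 and 40 counts in WT, 1083, 1079 and 1161 in KO and 6, 0 and 1 in KO_PAPC, about as many as *Zscan4d*. Its log2 fold change was 4.68 ± 0.0819 in KO against WT (edgeR adjusted p = 1.15e-31) and -8.61 ± 0.163 in KO_PAPC against KO (edgeR adjusted p = 4.35e-33). In the second contrast *Zscan4a* passed the filter on low counts through KO alone. *Zscan4b* was the lowest of the cluster by plain counts, but not per 1000 particular words (12.9 ± 0.775 CPM in KO, beside 7.93 ± 0.441 for *Zscan4-ps1*). It had 2, 2 and 2 counts in WT, 71, 62 and 70 in KO and 0, 1 and 0 in KO_PAPC. Mean levels in KO of *Zscan4-ps1*, *Zscan4-ps2* and *Zscan4-ps3* were 8.14 ± 0.452, 9.60 ± 0.347 and 13.9 ± 0.281 CPM, against 0.347 ± 0.152, 0.405 ± 0.0844 and 0.872 ± 0.348 CPM in WT. The copies named as pseudogenes thus gathered counts in the same order of groups as the coding members, with 47.8% to 87.4% of their words shared with other genes.

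Of the *Usp17l* paralogs, *Usp17le* was closest to *Usp17lc*, with 156, 183 and 180 counts in KO and a KO over WT ratio of 12.7 (fitted log2 fold change 3.66 ± 0.171). *Usp17la*, the genomic neighbour of *Usp17lb*, had a similarly small ratio, 5.09 (3.99 to 6.56), with 30, 23 and 26 counts in WT and 148, 141 and 121 in KO. *Usp17ld* held 57, 52 and 41 counts in KO and none in KO_PAPC. All 3 passed the test as higher in KO over WT and lower in KO_PAPC than KO, with edgeR adjusted p between 1.57e-19 and 7.61e-12 in the first contrast and between 2.88e-22 and 4.93e-14 in the second.

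By fitted change in KO_PAPC against KO, the 4 listed two-cell transcripts to be named were *Pramel6*, *Gm2016*, *AF067061* and *Spz1*. For the 3 of them at 0 in KO_PAPC this order depends on the prior count and the KO level, and it is no ranking. *Pramel6*, of the PRAME-like family, held 28, 38 and 29 counts in WT, 114, 125 and 104 in KO and 0 in each KO_PAPC library, so that KO was at least 37.0-fold above KO_PAPC. *Gm2016* held 14, 20 and 14 counts in WT, 296, 295 and 329 in KO and 0, 0 and 1 in KO_PAPC. *AF067061*, which lies 52361 bases from *Tcstv3*, and *Spz1*, a transcription factor gene of the testis, were 8.62-fold (5.69 to 13.6) and 12.1-fold (7.25 to 21.5) higher in KO than in WT and at 0 in KO_PAPC. Not every listed transcript was detected. In KO, 12 of the 46 transcripts were at the floor, *Obox1*, *Obox2*, *Obox3* and *Obox5* among them, and in KO_PAPC 40 of 46 were.

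Genes known to switch the state on were also highest in KO. All 7 listed activators were higher in KO than in WT (background 36.8%) and lower in KO_PAPC than in KO (background 42.2%), with medians of 0.91 and -1.46; in the first contrast 1 and in the second 2 of them passed the filter on low counts through KO alone. In KO_PAPC against WT, 4 of 6 tested were lower (background 36.4%), or 5 when scaled by totals, and 1 was higher (background 34.2%). The latter was *Nelfa*, a subunit gene of the NELF complex named after its values were seen, at 94.9 ± 0.691 CPM in WT EBs, 143 ± 3.77 in KO EBs and 114 ± 1.26 in KO_PAPC EBs, so that not every activator had the members' order of groups. *Duxf3*, the annotated copy of the *Dux* array, held 3, 0 and 0 counts in WT, 39, 23 and 34 in KO and 0, 1 and 0 in KO_PAPC. KO was 31.4-fold above WT (10.4 to 155), and the log2 fold change was 4.81 ± 0.514 (edgeR adjusted p = 3.55e-10). *Dux* is a tandem array, and 46.4% of the 51-base words of *Duxf3* also occur in other genes. *Dppa2* was abundant in all groups, at 50.5 ± 2.03 CPM in WT EBs, 121 ± 3.68 in KO EBs and 39.2 ± 2.97 in KO_PAPC EBs. Its log2 fold change was 1.26 ± 0.0345 in KO against WT and -1.46 ± 0.0405 in KO_PAPC against KO (edgeR adjusted p = 3.94e-26 and 7.14e-28). *Dppa4*, its partner, moved less, by 0.39 ± 0.0354 and -0.55 ± 0.0366 (edgeR adjusted p = 9.58e-12 and 3.13e-16).

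*Tbx3*, a T-box factor known to favour two-cell-like cells, had 115 ± 2.03 CPM in WT EBs, 216 ± 0.726 in KO EBs and 28.9 ± 0.128 in KO_PAPC EBs. *Gata2* had 0.633 ± 0.114, 4.79 ± 0.512 and 0.289 ± 0.0341 CPM. Its log2 fold change was 2.91 ± 0.173 in KO against WT (edgeR adjusted p = 1.21e-16) and -3.86 ± 0.210 in KO_PAPC against KO (edgeR adjusted p = 8.38e-19). From WT to KO_PAPC, *Dppa2* fell by 1.29-fold (1.23 to 1.35) and *Tbx3* by 3.99-fold (3.82 to 4.17), beside WT over KO_PAPC ratios of 15.9 (8.70 to 32.5) for *Zscan4d* and 29.2 (16.1 to 59.0) for *Tmem92*, the members above the floor in both groups. These ratios are by library totals. With TMM the fitted log2 fold changes were smaller in size for *Dppa2* and *Tbx3*, at -0.20 ± 0.0493 and -1.83 ± 0.0382.

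Repressors of the state did not move as 1 group in KO against WT. Of 28 listed, 11 were higher and 9 lower (backgrounds 36.8% and 37.1%), with a median of -0.01. In KO_PAPC against KO, 18 were higher and 6 lower (backgrounds 39.6% and 42.2%), with a median of 0.30, and 16 and 9 with a median of 0.14 when scaled by totals. In KO_PAPC against WT, 23 were higher and 2 lower (backgrounds 34.2% and 36.4%). By totals, 16 and 5 were, where 3631 of all tested genes were higher and 8334 lower. *Ehmt2*, the H3K9 methyltransferase G9a, was at 167 ± 5.85 CPM in WT EBs, 98.6 ± 0.309 in KO EBs and 181 ± 3.13 in KO_PAPC EBs. *Uhrf1*, which directs maintenance DNA methylation, was at 326 ± 2.66, 258 ± 3.64 and 461 ± 5.85 CPM. Both were lower in KO than in WT, with log2 fold changes of -0.76 ± 0.0293 and -0.34 ± 0.0232 (edgeR adjusted p = 7.95e-22 and 6.04e-15). *Myc* and *Ncl*, which encodes nucleolin, showed the same order, with log2 fold changes of -0.58 ± 0.0666 and -0.23 ± 0.0193 in KO against WT and of 1.34 ± 0.0620 and 0.94 ± 0.0219 in KO_PAPC against KO. *Rif1*, named after its values were seen, went the other way, at 309 ± 14.1 CPM in WT EBs, 570 ± 25.3 in KO EBs and 293 ± 15.9 in KO_PAPC EBs. Its log2 fold changes were 0.88 ± 0.0280 in KO against WT and -0.80 ± 0.0309 in KO_PAPC against KO. *Zmym2* was at 158 ± 4.92 CPM in WT EBs, 162 ± 4.71 in KO EBs and 195 ± 12.5 in KO_PAPC EBs, and the difference between KO and WT was not called (log2 fold change 0.03 ± 0.0283, edgeR adjusted p = 0.276).

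**Figure D3:**
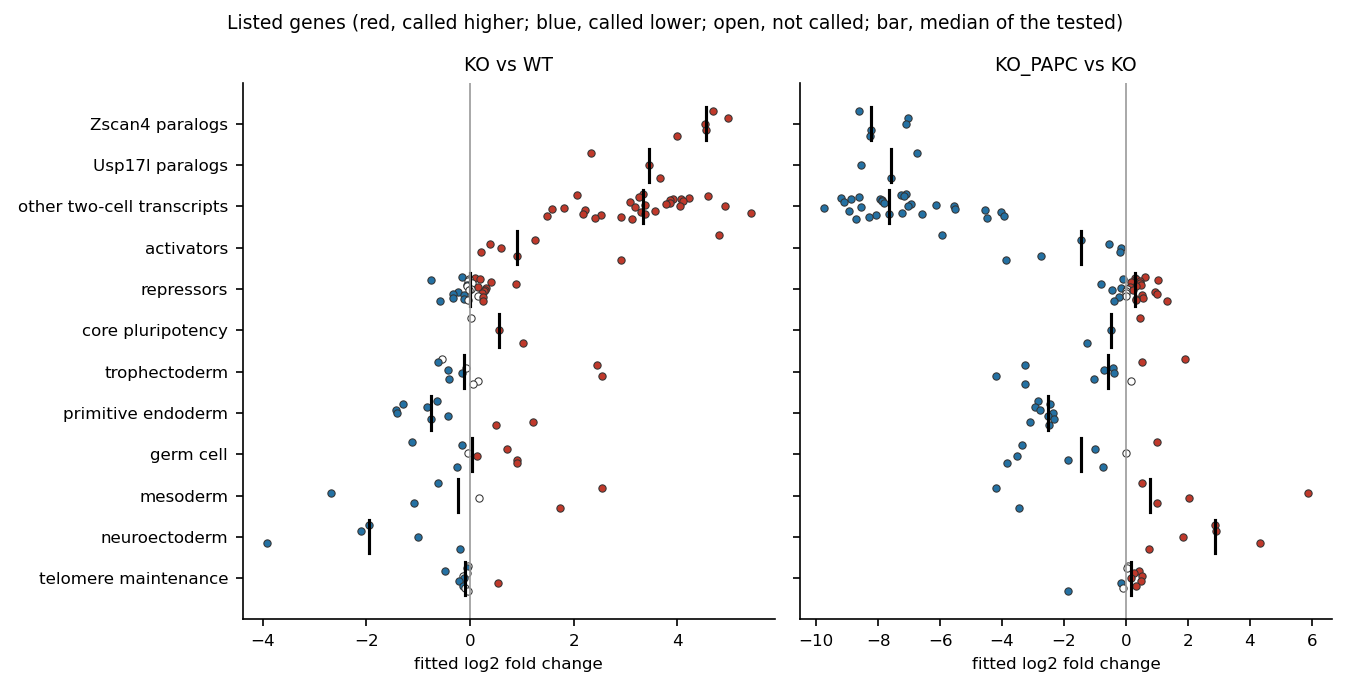
Fitted log2 fold changes of the listed genes, 1 point per tested gene, in KO against WT and in KO_PAPC against KO; colour marks the edgeR call and the bar the list's median. All tested *Zscan4* paralogs, *Usp17l* paralogs and other two-cell transcripts lie right of 0 in KO against WT and left of it in KO_PAPC against KO, though most of them passed the filter on low counts through KO alone, while the repressors lie on both sides of 0 in both contrasts.

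Genes near the members were examined within 250 kb of each member or, for *Zscan4* and *Usp17l*, of its cluster, leaving out the paralogs of these 2 families. The neighbours *AF067061*, *Gm21761*, *B020031M17Rik* and *Gm20767* are also among the other two-cell-like transcripts counted above, so these counts are not separate. Some neighbours share words with members, as *Gm21818* does with *Tcstv1* (19.0%) and *Gm11544* with *Tmem92* (12.7%). This was done after the members' values had been seen, and the limit of 100 kb used below was set from the plot of distances. Within 100 kb, 14 of 15 tested neighbours were higher in KO than in WT (background 36.8%) and 14 were lower in KO_PAPC than in KO (background 42.2%). However, 9 and 13 of the 15 passed the filter on low counts through KO alone. Of the 6 that passed it in both KO and WT, 5 were higher in KO. With a filter of 1 read, 14 of 16 were higher in KO than in WT (background 20.3%) and 14 lower in KO_PAPC than in KO (background 25.0%). Beyond 100 kb, 6 of 16 were higher and 5 lower in KO over WT (median -0.03, backgrounds 36.8% and 37.1%). In KO_PAPC against KO, 8 were lower and 6 higher (backgrounds 42.2% and 39.6%). The exception within 100 kb was *Gm5900*, a processed pseudogene near *Usp17lb*, which held 61, 58 and 64 counts in WT and 57, 48 and 55 in KO.

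Around *Tmem92*, 5 unprocessed pseudogenes within 62655 bases, *Gm11546*, *Gm11545*, *AA623943*, *Gm11543* and *Gm11544*, had log2 fold changes of 2.41 to 3.89 in KO against WT. *AA623943* held 25, 33 and 26 counts in WT, 397, 421 and 429 in KO and 0 in each KO_PAPC library. The next gene, *Xylt2*, at 99702 bases, was higher by 0.17 ± 0.0368 (edgeR adjusted p = 1.01e-04). *Gm21761*, 17310 bases from *Tcstv1*, had about as many counts as *Tmem92*, with 136, 110 and 109 counts in WT, 1732, 1776 and 1760 in KO and 6, 7 and 7 in KO_PAPC, with 75.5% of its words found elsewhere too. Per 1000 particular words its KO level was 190 ± 4.71 CPM, beside 27.3 ± 1.20 for *Tmem92*. Near *Tcstv3*, *BC147527* held 14, 15 and 9 counts in WT and 129, 133 and 155 in KO. Near genes share sequence in part, since 18.7% of the words of *Gm11544* and 22.8% of those of *AF067061* occur elsewhere, while *Gm11545* shares none; the part of shared reads in the result was not tested.

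**Figure D4:**
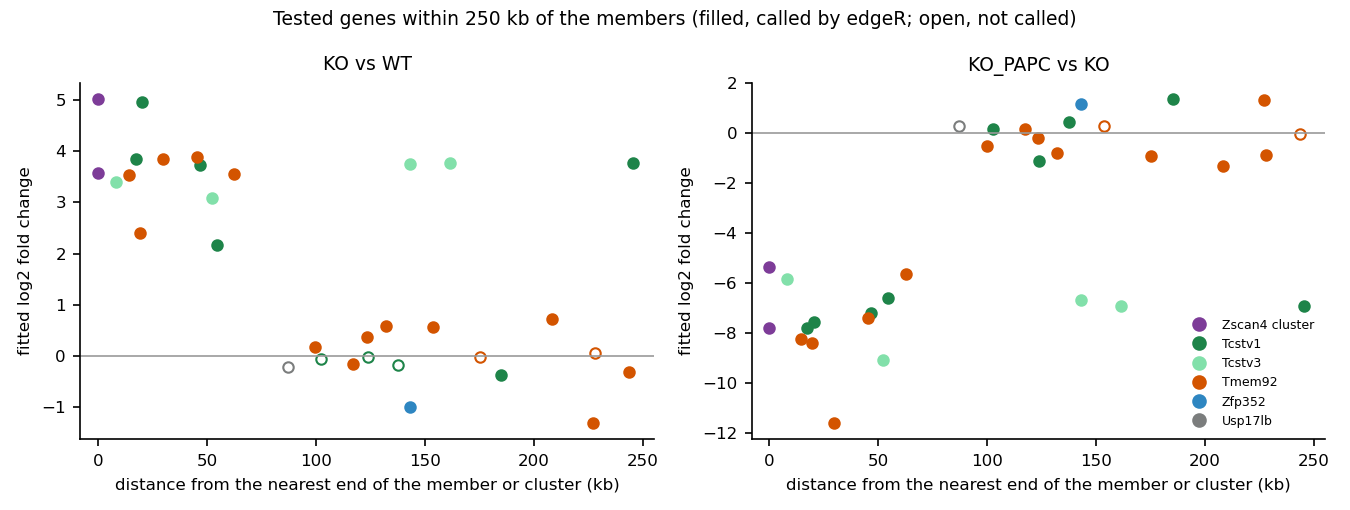
Fitted log2 fold change of each tested neighbour against its distance in kb from the nearest end of the member or cluster, for KO against WT and KO_PAPC against KO. Points within about 65 kb lie at 2.17 or above and at -5.36 or below, and those farther away lie between -1.32 and 1.36 except 3 points near *Tcstv1* and *Tcstv3*, where *Gm20767* is drawn for both.

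Among 14409 other genes with at least 1 CPM in KO, the 8 whose pattern over the 9 libraries was most like the median member were found by Euclidean distance between centred log2(CPM + 1) values. They were *Tfap2c* (distance 0.246), *Gm21818* (0.287), *Alox12e* (0.385), *Gm21037* (0.404), *Kif19a* (0.407), *Gm11546* (0.423), *Gm2016* (0.472) and *Aldh1a2* (0.475). With a pseudocount of 0.25, which gives low values more weight, 3 of the 8 remained among the first 8: *Gm2016*, *Gm21037* and *Gm21818*. *Tfap2c*, the AP-2γ factor, was then at rank 92, since its 27.4 ± 0.858 CPM in KO_PAPC were far above the floor, beside 53.9 ± 0.666 CPM in WT and 294 ± 3.43 CPM in KO. *Aldh1a2*, a retinoic acid synthesising enzyme, and *Kif19a* likewise kept 0.710 ± 0.194 and 0.686 ± 0.154 CPM in KO_PAPC, while *Gm21037*, a processed pseudogene, held 1, 1 and 0 counts there.

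Markers of other cell states also differed between the groups, in both directions, and their part in the result was not tested. Of 36 tested markers of other cell types, 9 were higher and 21 lower in KO than in WT (backgrounds 36.8% and 37.1%). The 3 core pluripotency genes summed to 1580 to 1590 CPM in WT EBs, 2220 to 2250 in KO EBs and 1600 to 1630 in KO_PAPC EBs. *Nanog* was higher in KO than in WT by 1.02 ± 0.0214 and lower in KO_PAPC than KO, at -1.27 ± 0.0251 (edgeR adjusted p = 2.18e-29 and 1.44e-32). *Sox2* differed by 0.56 ± 0.0201 and -0.48 ± 0.0233. *Pou5f1*, the third of these genes, named after its values were seen, went another way, at 684 ± 14.3 CPM in WT EBs, 696 ± 14.2 in KO EBs and 843 ± 23.3 in KO_PAPC EBs. It was not called between KO and WT (edgeR adjusted p = 0.304) and was higher in KO_PAPC than in KO by 0.44 ± 0.0245 (edgeR adjusted p = 1.33e-18). The rise of *Nanog* was 2.02-fold (2.00 to 2.05), beside the 5.05-fold or greater ratios of the members. The 11 trophectoderm markers summed to 159 to 162, 378 to 386 and 94.8 to 96.8 CPM in WT, KO and KO_PAPC. Without *Tfap2c* the other 10 summed to 105 to 108, 85.4 to 88.4 and 67.4 to 68.4 CPM, so that the higher sum in KO rests on this gene. Of the 10 tested, 2 were higher and 4 lower in KO than in WT; the 2 were *Tfap2c* and *Hand1*, the latter at 0.777 ± 0.0839, 4.53 ± 0.522 and 0.217 ± 0.0744 CPM. *Elf5* and *Plac1* were at the floor in KO_PAPC.

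The 9 primitive and visceral endoderm markers summed to 261 to 268 CPM in WT EBs, 172 to 177 in KO EBs and 25.4 to 26.9 in KO_PAPC EBs. In KO against WT 2 were higher and 7 lower (backgrounds 36.8% and 37.1%). The 2 were *Afp* and *Ttr*, named after their values were seen. *Afp* was at 4.75 ± 0.277, 11.0 ± 0.334 and 1.14 ± 0.204 CPM in WT, KO and KO_PAPC, and *Ttr* at 9.24 ± 0.656, 13.1 ± 0.751 and 2.11 ± 0.181 CPM. In KO_PAPC against KO 9 of 9 were lower (background 42.2%). *Dab2* and *Gata4* fell by 6.44-fold (6.05 to 6.87) and 8.12-fold (7.04 to 9.40) from KO to KO_PAPC. Neuroectoderm markers ran the other way from the members, with 5 of 5 tested lower in KO than in WT (background 37.1%) and 5 of 5 higher in KO_PAPC than in KO (background 39.6%). *Sox1* was at 71.7 ± 3.08, 18.5 ± 1.10 and 120 ± 0.540 CPM, and *Pax6* at 23.8 ± 0.534, 5.49 ± 0.256 and 36.9 ± 0.350 CPM, in WT, KO and KO_PAPC. *Neurog2* was at the floor in KO and KO_PAPC. Mesoderm markers were mixed. *T* held 60, 47 and 53 counts in WT, 6, 7 and 12 in KO and 458, 429 and 396 in KO_PAPC, whereas *Kdr* was highest in KO, with 167, 186 and 196 counts, and held 8, 21 and 14 in KO_PAPC. The sum of the 7 mesoderm markers ranged from 40.7 to 44.4 CPM in WT EBs, 35.6 to 37.1 in KO EBs and 50.0 to 52.7 in KO_PAPC EBs.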

How the data were processed

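RNA was sequenced from mouse EBs in 9 libraries, 3 each of WT, KO and KO_PAPC, grouped by their titles. The authors deposited whole-number read counts per Ensembl gene, not normalized. Per the submitters' processing notes these came from bcl2fastq 2.20.0.422, STAR 2.7.2b and featureCounts 1.6.5 on GRCm38; the study's methods give an earlier pipeline for a first analysis of KO and WT, and which one made the WT counts is not given in the sources used here. Reads that mapped to several places were not counted and strand was not used, so near-identical copies and antisense partners are uncertain.

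Counts were scaled to CPM by library totals. Genes were tested with edgeR 4.0.16 (R 4.3.3; quasi-likelihood test, TMM, filterByExpr, Benjamini-Hochberg over all tested genes), each contrast on its own 6 libraries. The test was checked on simulated data in which 200 genes changed, far fewer than were called here. That check therefore does not cover the scaling or the calls where most genes differ. Ratios are of pooled counts. Replicates differed by more than sampling noise in a chi-square test. Symbols and positions are from GENCODE M21; 241 identifiers had no match. The members and all gene lists were chosen with earlier results of these data known. Named were all members and family paralogs, the 4 most changed called genes of each further list in KO_PAPC against KO, *Duxf3*, *Dppa2*, *Dppa4* and *Zmym2*, the 2 markers per list with the smallest adjusted p there, and the 8 genes of most like pattern; neighbours and genes at the floor were named after their values were seen. Replicate numbers were taken from the titles. The alternatives were RLE factors, library totals, DESeq2 1.42.0, 2 other filters, a joint fit, a replicate block, each library left out and a tested minimum fold change of 2.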

Additional observations from a re-analysis of the deposited data

How the results depend on the processing

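Every other two-cell-like transcript called was higher in KO against WT and lower in KO_PAPC against KO under each alternative run, with 36 to 38 and 34 to 40 called beside 37 and 37 (23 and 36 of which passed the filter on low counts through KO alone), and the 7 activators kept their calls with RLE factors and library totals. Of the values of named genes under an alternative, 1619 kept their direction and call, 43 lost the call and 1 changed sign. Between KO_PAPC and WT, 14 other two-cell-like transcripts were called, but 28 with a filter of 1 read and 32 in the joint fit of 9 libraries, since more of the low genes were then tested. Under a tested minimum fold change of 2, the calls over all genes were 1587 in KO against WT, 3554 in KO_PAPC against KO and 1335 in KO_PAPC against WT, beside 12813, 14047 and 11760, and the calls among the 35 regulators were 3, 5 and 1. With TMM-scaled sizes the summed level of the members was 11.0 CPM in WT and 158 CPM in KO.

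*Sox2* changed sign in KO_PAPC against WT, from 0.07 to -0.092 with library totals, and its call there was lost without KO_PAPC replicate 3 (edgeR adjusted p = 0.0610) or WT replicate 2 (edgeR adjusted p = 0.0556). The call of *Gata2* in KO_PAPC against WT (edgeR adjusted p = 0.0118) was lost without WT replicate 3 (0.0653) and in DESeq2 (0.0763), and that of *Dazl* in KO against WT (0.00287) without KO replicate 1 (0.0815) and in DESeq2 (0.114). With the replicate block, 12587, 13822 and 12223 genes were called in the 3 contrasts. Libraries of 1 number deviated from their group means with correlations of -0.0453 to 0.0789, so the numbers did not pair the libraries. At this depth, counts of 3 or fewer limit all statements on KO_PAPC levels of the members.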

Other observations

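Telomere maintenance genes, listed because ZSCAN4 is known for telomere lengthening, moved little. Of 11 tested, 1 was higher and 5 were lower in KO than in WT (median log2 fold change -0.10, backgrounds 36.8% and 37.1%). In KO_PAPC against KO, 6 were higher and 2 lower (backgrounds 39.6% and 42.2%), with a median of 0.15. *Acd*, a shelterin subunit, was at 71.2 ± 0.848 CPM in WT EBs, 61.0 ± 1.52 in KO EBs and 77.1 ± 3.81 in KO_PAPC EBs. *Tert*, the telomerase reverse transcriptase, named after its values were seen, held 431, 431 and 410 counts in WT, 408, 415 and 432 in KO and 368, 372 and 411 in KO_PAPC, and was not called in any contrast (edgeR adjusted p between 0.231 and 0.656). *Smc1b*, a meiotic cohesin subunit on the same list, fell by 4.07-fold (3.58 to 4.63) from KO to KO_PAPC and was not called between KO and WT (edgeR adjusted p = 0.493).

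Germ-cell genes were mostly lower in KO_PAPC than in KO, with mixed directions in KO against WT. The 8 genes summed to 284 to 292 CPM in WT EBs, 271 to 285 in KO EBs and 91.3 to 97.3 in KO_PAPC EBs. Of 8 tested, 4 were higher and 3 lower in KO than in WT (backgrounds 36.8% and 37.1%). In KO_PAPC against KO, 1 was higher and 6 were lower (backgrounds 39.6% and 42.2%). *Stra8*, a gene of meiotic entry, was at 73.0 ± 1.02 CPM in WT EBs, 79.8 ± 2.16 in KO EBs and 6.18 ± 0.603 in KO_PAPC EBs. *Dazl*, an RNA-binding protein gene, was at 76.1 ± 4.33, 68.7 ± 5.73 and 5.94 ± 0.136 CPM. *Taf7l* held 572, 539 and 566 counts in KO and 33, 32 and 35 in KO_PAPC, and differed by -3.85 on the log2 scale (edgeR adjusted p = 2.43e-28); it was named after its values were seen.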
